A study of Mus musculus with 18 samples.

Results

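Immediate early genes are the first genes that cells transcribe after a growth or stress signal, without new protein synthesis. The 10 followed here, Jun, Junb, Fos, Egr1, Ier2, Atf3, Btg2, Klf6, Ccn1 and Ccn2, were taken by name from the 54446 genes of a count table of nuclear RNA in mouse embryonic stem cells, and all 10 had enough reads to be tested in both experiments of the study. Jun, Junb and Fos encode subunits of the AP-1 transcription factor, and Atf3 encodes a bZIP repressor or activator of the stress response. Egr1 and Klf6 encode zinc finger factors, Ier2 a nuclear regulator and Btg2 an antiproliferative cofactor of deadenylation. Ccn1 and Ccn2 encode secreted matricellular proteins and are classical targets of YAP and TEAD. Their transcription is driven by ERK, p38 and JNK kinases acting on SRF and its partners and on CREB and ATF factors. That of the CCN genes is also driven by YAP and TEAD. Many of their RNAs are removed rapidly through AU-rich elements in the 3′ UTR.

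The study measured nuclear RNA in 9 groups of 2 libraries each. All cells were C57BL/6 embryonic stem cells grown in 15% FBS with LIF, 3 µM CHIR99021 (an inhibitor of GSK3) and 1 µM PD0325901 (an inhibitor of MEK, the kinase above ERK), cultured for 48 h and collected by trypsinization. In the first experiment, cells of genotype Ythdc1_Control or Ythdc1_cKO were collected after 0, 3 or 6 h of 5 µg/ml actinomycin D, which blocks transcription; YTHDC1 is the nuclear reader of N6-methyladenosine (m6A) in RNA. In the second, Mettl3_Control, Mettl3_KO1 and Mettl3_KO2 cells were collected at 0 h; METTL3 is the catalytic subunit of the m6A methyltransferase. The labels do not say how the Ythdc1 deletion was driven, or whether KO1 and KO2 are single clones. They do not say either whether replicates were separate cultures, so p-values measure only the spread between these libraries, which may be technical. Libraries held 4950973 to 30989044 gene reads, and 12 of 12 pluripotency markers were detected in every group.

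Some libraries stood apart from their labels or from the rest. With TMM scaling, the targeted genes were not reduced in 2 of the groups named for their deletion. In CPM, counts scaled to a common library size, Ythdc1 stood at 145.1 and 132 in control and at 143.2 and 120.4 in cKO before the drug, and Mettl3 did not fall in KO1 (36.6 and 31.9 in control; 32.6 and 31.3 in KO1). Under actinomycin D, Ythdc1 was lower in TMM-scaled CPM in cKO (14.5 and 15.3 at 3 h, 19.2 and 18.7 at 6 h) than in control (51.85 and 50.3, then 51.3 and 47.2), and Mettl3 was at 22.7 and 22.1 in KO2. Per 10000 spike-in reads, Ythdc1 at 3 h was higher in cKO (529 and 566.5 reads) than in control (483.3 and 463.3). At 6 h it was lower on that scale too (102.8 and 97.3 against 364.7 and 331.2). With spike-in scaling, Ythdc1 was called lower in cKO at 0 h (-0.44 ± 0.082 on the log2 scale), and Mettl3 in KO2, called lower by TMM (-0.61 ± 0.082), was at -0.05 and not called. These counts are per gene and can include parts that a deletion may leave, and every direction below is that of libraries so labelled. ERCC spike-in RNA made up 0.0277% and 0.0272% of the reads in the cKO libraries at 3 h, against 0.0771% to 0.189% in the other Ythdc1 libraries. Results are given with TMM scaling, which centres most genes on no change, and with scaling to the spike-ins, which moved the median log2 change of all genes to 1.86 in cKO at 3 h against 0 h, to -0.88 in control at 6 h and to -0.35 for cKO against control at 0 h. Reads assigned to no gene fell from 49.7% to 53.5% of unique reads at 0 h to 18.02% to 24.5% under the drug.

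Proximal promoters of 5 members and the AU-rich parts of 2 transcripts are shown; whether these sequences bear on the levels was not tested. Promoters were matched by symbol in RefSeq (GRCm38.p6) for 7 of the 10 members, all but Egr1, Ier2 and Ccn2. The 170 bases before the start are printed for Jun, Atf3, Klf6 and Btg2, which were higher in cKO at 0 h, and for Ccn1, which fell furthest under the drug. Capitals mark TGACNTCA in Jun, Klf6 and Btg2, the 8-base form that CREB, ATF and JUN dimers can bind, and in Ccn1 the reverse complement of the TEAD motif GGAATG and the TATA box. The Atf3 window held no exact match to the motifs searched, and near matches were not counted. This window lies inside the annotated Atf3 locus, which runs to 191218039, and no other start of Atf3 was searched.
Jun, chr4:95052223-95052392, strand -: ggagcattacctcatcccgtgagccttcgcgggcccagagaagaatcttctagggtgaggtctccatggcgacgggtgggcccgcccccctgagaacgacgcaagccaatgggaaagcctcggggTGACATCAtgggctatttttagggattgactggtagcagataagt
Atf3, chr1:191183334-191183503, strand -: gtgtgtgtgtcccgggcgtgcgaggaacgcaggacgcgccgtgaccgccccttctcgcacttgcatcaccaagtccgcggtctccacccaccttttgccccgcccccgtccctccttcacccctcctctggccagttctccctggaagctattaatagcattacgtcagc
Klf6, chr13:5861319-5861488, strand +: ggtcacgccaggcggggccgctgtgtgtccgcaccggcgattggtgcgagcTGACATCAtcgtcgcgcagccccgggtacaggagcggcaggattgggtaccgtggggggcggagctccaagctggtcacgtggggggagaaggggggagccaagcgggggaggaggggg
Btg2, chr1:134079156-134079325, strand -: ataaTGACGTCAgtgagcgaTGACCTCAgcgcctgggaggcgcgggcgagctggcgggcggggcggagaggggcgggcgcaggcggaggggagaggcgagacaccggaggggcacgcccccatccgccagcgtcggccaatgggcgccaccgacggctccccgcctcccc
Ccn1, chr3:145649986-145650155, strand -: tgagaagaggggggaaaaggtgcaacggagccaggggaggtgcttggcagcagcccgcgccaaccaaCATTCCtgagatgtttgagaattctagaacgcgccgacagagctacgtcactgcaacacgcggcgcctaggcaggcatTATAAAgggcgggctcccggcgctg

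Motifs were searched on both strands in the 250 bases before each start. TGACNTCA was found in 3 of 7 members and in 7.49% of 32851 promoters of the same length; this motif was chosen after the sequences had been seen. In Jun it lay at -45 to -38, in Klf6 at -119 to -112, and in Btg2 at -166 to -159 and at -150 to -143. GGAATG was found in 1 of 7 members, Ccn1 (-103 to -98), and in 12.6% of all promoters. TATAAA was found in Fos (-33 to -28) and Ccn1 (-25 to -20), and in 12.4% of all promoters. The AP-1 motif TGANTCA, found in 6.75% of all promoters, and the CArG box, the SRF motif found in 1.47%, were in 0 of the 7 windows. The motifs overlapped in none of these 7 windows.

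The pentamer ATTTA, the core of AU-rich elements, was counted in the 3′ UTR of 1 GENCODE M21 transcript per gene. Ccn1 had the highest density of the 10, 7.25 per kb, followed by Fos with 4.91 and Junb with 4.12; Ier2, which also fell under the drug, had 0, and the median of 13805 genes was 1.15. The windows below hold the densest runs in Ccn1 and Fos, with each ATTTA in capitals.
Ccn1: agagaATTTATTTAtaaaattaatcATTTA
Fos: aacgtttttattgtgttttcaATTTATTTA
GGACT, a sequence form of the m6A consensus, occurred at 0.417 per kb of transcript in Ccn2 and 3.29 per kb in Ier2, against a median of 1.06. The member transcripts had 1 to 5 exons, a count reached or undercut by 27.9% of the 13805 genes, whose median was 9 exons.

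The members spanned a wide range of levels in untreated control nuclei of the Ythdc1 experiment. Per kb of exon, Ccn2 stood highest with 27.7 CPM, above 90.7% of the 17900 tested genes, and was followed by Ier2 with 21.7, Btg2 with 14.9 and Ccn1 with 12.05. Klf6 had 4.001, Junb 3.26 and Jun 2.23 CPM per kb, near the median of 3.33 over all tested genes. Atf3 with 0.96, Fos with 0.846 and Egr1 with 0.136 CPM per kb were lowest, and of these neighbours only Atf3 and Fos overlapped between libraries. Egr1 rested on 3 to 27 reads per library throughout, so its differences were estimated poorly.

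In GENCODE M21 on mm10, the AP-1 genes were Jun (ENSMUSG00000052684.4) on chromosome 4, 95049034 to 95052222, minus strand; Junb (ENSMUSG00000052837.6) on chromosome 8, 84974484 to 84978718, minus strand; and Fos (ENSMUSG00000021250.13) on chromosome 12, 85473890 to 85477273, plus strand. The stress and zinc finger factor genes were Atf3 (ENSMUSG00000026628.13) on chromosome 1, 191170296 to 191218039, minus strand, Egr1 (ENSMUSG00000038418.7) on chromosome 18, 34859823 to 34864984, plus strand, and Klf6 (ENSMUSG00000000078.7) on chromosome 13, 5861482 to 5870394, plus strand. The regulator genes were Ier2 (ENSMUSG00000053560.4) on chromosome 8, 84661331 to 84662852, minus strand, and Btg2 (ENSMUSG00000020423.6) on chromosome 1, 134075170 to 134079120, minus strand. The matricellular genes were Ccn1 (ENSMUSG00000028195.4) on chromosome 3, 145646976 to 145649981, minus strand, and Ccn2 (ENSMUSG00000019997.11) on chromosome 10, 24595442 to 24598683, plus strand. All 10 are annotated as protein-coding.

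Before actinomycin D, 6 of the 10 members were higher in the libraries labelled cKO than in control and 0 were lower; of all 17900 genes 13.5% were called higher and 15.8% lower (edgeR's quasi-likelihood test, adjusted p under 0.05). The members' median log2 fold change was 0.81, against 0.01 over all genes. Jun was at 7.05 and 7.18 CPM in control and at 25.9 and 21.4 in cKO, and Atf3 at 1.84 and 2.29 in control and at 7.71 and 5.25 in cKO. Neither gene's libraries overlapped between the groups. Jun rose by 1.73 ± 0.16 (log2, SE, n = 2 and 2; edgeR adjusted p = 5.95e-11), and Atf3 by 1.63 ± 0.34 (adjusted p = 0.00019).

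Klf6 was at 17.3 and 17.8 CPM in control and at 41.1 and 40.7 in cKO, a rise of 1.22 ± 0.13 (edgeR adjusted p = 1.32e-09). Btg2 moved from 39.7 and 41.9 CPM to 72.5 and 69.4, a rise of 0.80 ± 0.095 (edgeR adjusted p = 2.34e-08). Ccn2 moved from 77.7 and 80.95 CPM to 129.4 and 130.6, a rise of 0.71 ± 0.077 (edgeR adjusted p = 2.5e-09). In each of these 3 genes both cKO libraries lay above both control libraries. Fos was at 1.84 and 2.14 CPM in control and at 3.47 and 3.69 in cKO, which did not pass the test (0.83 ± 0.36, edgeR adjusted p = 0.0758). The remaining members not called were Egr1 with a log2 difference of 0.82 ± 0.68, Junb with 0.44 ± 0.23 and Ier2 with 0.20 ± 0.12.

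Ccn1, at 23.6 and 25.05 CPM in control and 32.9 and 30.6 in cKO, was called higher by 0.38 ± 0.14 (edgeR adjusted p = 0.034). That call was lost when any 1 of the 4 libraries was left out (0.34 and 0.42 without control replicates 1 and 2, 0.33 and 0.43 without cKO replicates 1 and 2), and scaled to spike-ins the value was 0.01 (adjusted p from 0.0066 to 0.971 over all alternatives). With spike-in scaling, 5 members were higher, Jun (1.36), Atf3 (1.25), Klf6 (0.85), Btg2 (0.43) and Ccn2 (0.34), and 0 lower, where 4.41% of all genes were called higher and 42.3% lower. Markers of fibroblasts, which also express the CCN genes, summed over 13 genes to 16.5 and 16.9 CPM in control and to 26.4 and 27.6 in cKO, with Dcn at 0 in control and Lum at 0 in cKO. Of 12 pluripotency markers 1 was higher and 8 lower in cKO, with sums of 4300 and 4264 CPM in control and 3477 and 3511 in cKO. The part of either list in the result was not tested. In these bulk libraries, more cells of a type and more RNA per cell cannot be told apart.

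**Figure D1:**
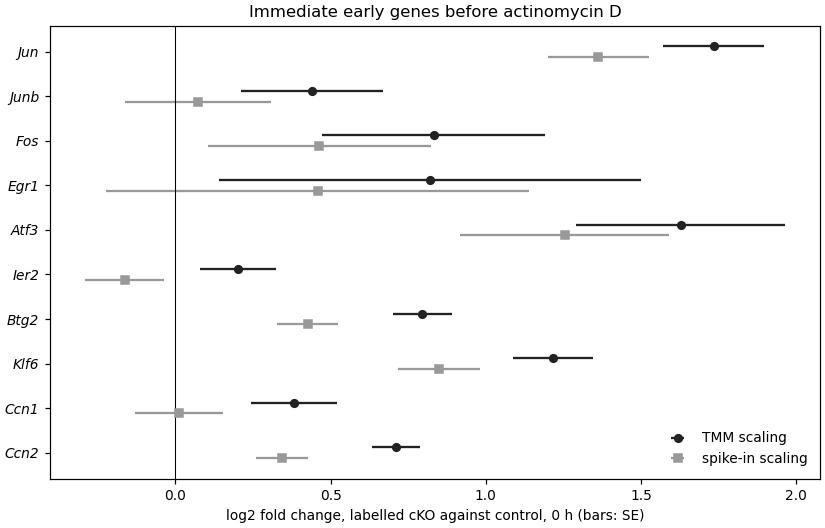
Log2 fold change of each member in the libraries labelled cKO against control at 0 h (x axis), with SE as bars, n = 2 and 2. Black circles use TMM scaling and grey squares scaling to spike-ins; Jun and Atf3 lie furthest to the right on both, and Ccn1 and Junb lie near 0 on the grey scale.

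Other genes of the response did not all move the same way. Of 43 further immediate early genes tested, 13 were higher and 8 lower in cKO at 0 h, with a median of 0.08; with spike-in scaling 6 were higher and 15 lower. Ptgs2, which encodes cyclooxygenase 2, rose by 2.05 ± 0.32, Plk2, a polo-like kinase, by 0.97 ± 0.073 and Tiparp, an ADP-ribosyltransferase, by 0.87 ± 0.097. Sgk1, a serum- and glucocorticoid-induced kinase, fell by 1.20 ± 0.069, Csrnp1 by 0.99 ± 0.18 and Sik1, a salt-inducible kinase, by 0.73 ± 0.10. Of the 20 genes of the ERK, p38 and JNK cascade 0 rose and 6 fell, among them Mapk3, which encodes ERK1 (-0.69 ± 0.16). Of 18 genes for SRF, CREB and related regulators 5 rose and 1 fell, including Ccnt1 (0.40 ± 0.067), a subunit of the elongation factor P-TEFb. Of 19 YAP and TEAD pathway genes tested, 1 rose (Lats1, a Hippo kinase, 0.54 ± 0.084) and 4 fell (Tead2 by 0.91 ± 0.079), while Ccn2 of the same pathway was among the members that rose. With spike-in scaling 0 genes of these 3 lists were higher, and 19 of 20 in the kinase list, 10 of 18 in the SRF and CREB list and 15 of 19 in the YAP list were lower, where 42.3% of all genes were called lower.

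The actinomycin D series shows how these nuclear RNAs are lost once transcription is blocked. In control, 8 of the 10 members were lower at 3 h than at 0 h and 0 were higher, with 27.1% of all genes called lower and 29.3% higher. At 6 h 7 were lower and 1 higher, with 31.7% and 33.1% of all genes called so. The 3 h and 6 h comparisons share the 0 h libraries. Scaled to spike-ins, 8 were lower at each time and Jun was higher at 6 h; 51.1% of all genes were then called lower and 7.19% higher at 3 h, and 63.0% and 7.33% at 6 h.

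Ccn1 fell furthest. It was at 23.6 and 25.05 CPM at 0 h in control, at 2.06 and 2.43 after 3 h and at 0.452 and 0.630 after 6 h, the last from 4 and 7 reads. Libraries of different times did not overlap, and the log2 change was -3.43 ± 0.21 at 3 h (edgeR adjusted p = 6.07e-18) and -5.44 ± 0.42 at 6 h (adjusted p = 4.68e-20). Ccn2 fell from 77.7 and 80.95 CPM to 23.1 and 21.8 and then to 13.0 and 12.5, changes of -1.82 ± 0.086 and -2.64 ± 0.10. In cKO, Ccn1 changed by -3.70 ± 0.19 and -4.70 ± 0.29, and Ccn2 by -1.78 ± 0.079 and -2.79 ± 0.094; with spike-in scaling the 3 h value of Ccn2 was 0.058 and not called. The CCN genes thus fell in cKO by amounts whose difference from control did not pass the test (at 6 h, 0.74 ± 0.51 for Ccn1 and -0.15 ± 0.14 for Ccn2).

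Atf3 fell from 1.84 and 2.29 CPM in control to 0.735 and 0.525 after 3 h and 0.226 and 0.450 after 6 h, the last from 2 and 5 reads. Its log2 change was -1.73 ± 0.46 at 3 h and -2.55 ± 0.63 at 6 h. Klf6 fell from 17.3 and 17.8 CPM to 9.71 and 9.77 and then to 7.003 and 7.289, by 0.85 ± 0.14 and 1.296 ± 0.162. Btg2 moved least of the 3, from 39.7 and 41.9 CPM to 28.8 and 26.0 and then to 20.6 and 23.4, a change of -0.58 ± 0.100 at 3 h and -0.89 ± 0.11 at 6 h. For all 3 genes the treated libraries lay below the untreated ones at both times.

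Ier2 and Junb were lower at 3 h than at 6 h on the TMM scale. Ier2 was at 33.3 and 32.7 CPM at 0 h in control, at 6.69 and 7.87 after 3 h and at 10.4 and 10.3 after 6 h, log2 changes of -2.17 ± 0.15 and -1.67 ± 0.15. Per 10000 spike-in reads, Ier2 had 62.4 and 72.5 reads after 3 h and 73.9 and 71.9 after 6 h, and the libraries of these times overlapped. Junb was at 6.29 and 8.71 CPM at 0 h, 1.69 and 2.098 after 3 h and 4.86 and 3.33 after 6 h, log2 changes of -1.99 ± 0.28 and -0.91 ± 0.26. The 6 h call for Junb was lost without replicate 2 of control at 0 h or at 6 h (-0.65 in each case; adjusted p from 1.05e-07 to 0.092 over all alternatives). Junb shares 173 exonic bases with Prdx2 on the opposite strand, which rose from 616 and 914 reads to 1491 and 1964 at 6 h. Whether the counting used strand is not given in the sources used here, which makes Junb values uncertain. The same limit holds for Ccn2, which shares 665 exonic bases with Gm15270 on the opposite strand. Gm15270 had 12 and 15 reads in control at 0 h and 10 and 17 at 6 h. Reads left ambiguous between genes rose in control from 2.91% and 2.67% of unique reads at 0 h to 10.1% and 10.2% at 6 h.

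Fos was at 1.84 and 2.14 CPM in control at 0 h, at 1.18 and 0.787 after 3 h and at 1.02 and 1.26 after 6 h. Its fall at 3 h (-1.04 ± 0.41, edgeR adjusted p = 0.0283) was lost without replicate 2 at 0 h (-0.92) or at 3 h (-0.76), and at 6 h, with 9 and 14 reads, it did not pass the test (-0.80 ± 0.43). Egr1 did not pass at either time (-0.37 ± 0.72 and -0.22 ± 0.76). Over all alternatives, the adjusted p of the 3 h value for Fos ran from 0.00114 to 0.208.

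Jun was the 1 member that rose in control under actinomycin D. It was at 7.05 and 7.18 CPM at 0 h, 7.28 and 9.31 after 3 h and 20.7 and 22.6 after 6 h, with no overlap between 6 h and the earlier times. The log2 change was 0.23 ± 0.17 at 3 h, which did not pass the test, and 1.61 ± 0.16 at 6 h (edgeR adjusted p = 3.26e-11). Per 10000 spike-in reads, Jun had 92.4 and 97.25 reads at 0 h, 67.9 and 85.8 after 3 h and 147.0 and 158.3 after 6 h, a change of 0.69 ± 0.16 at 6 h (adjusted p = 0.000276). The antisense gene Junos, which shares 232 exonic bases with Jun, had 2 and 3 reads at 0 h and 5 and 13 at 6 h, against 65 and 94 and then 183 and 251 for Jun.

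**Figure D2:**
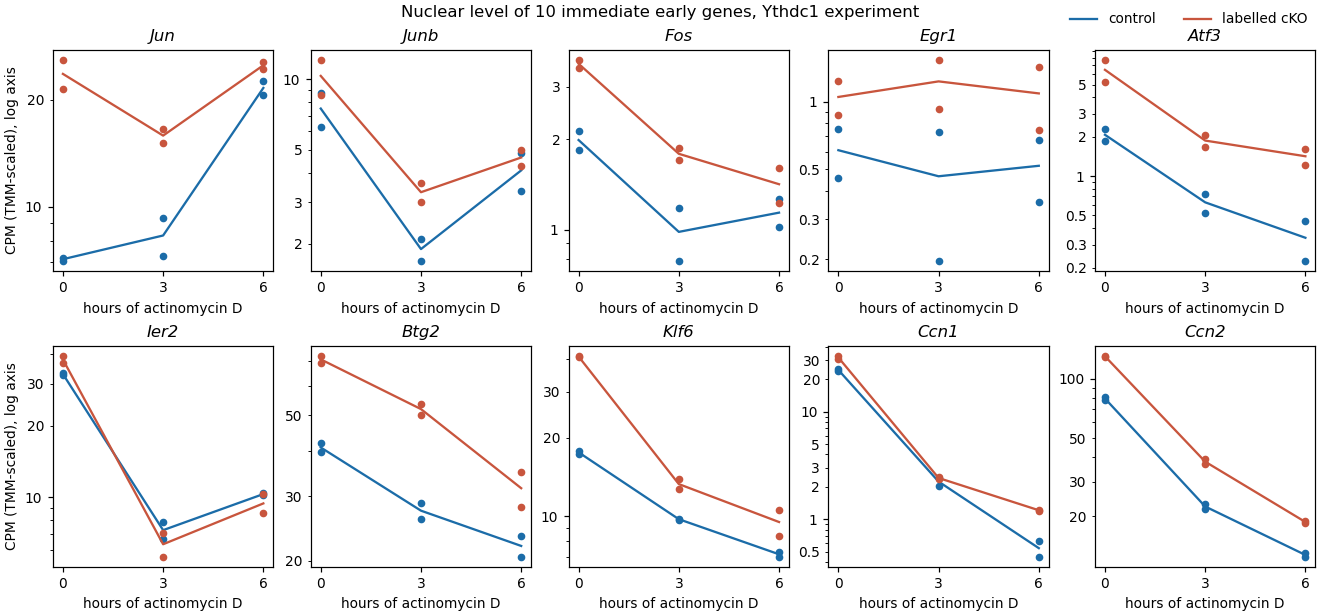
Level of each member (y axis, TMM-scaled CPM on a log axis) by hours of actinomycin D (x axis), in control (blue) and in libraries labelled cKO (red). Each point is 1 library and lines join the means of 2; Jun in control ends at 20.7 and 22.6 CPM, above its start, while Ccn1 ends at 0.452 and 0.630.

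In the libraries labelled cKO, 9 of 10 members were lower at 3 h than at 0 h and 8 at 6 h, with 0 higher; 29.8% and 31.3% of all genes were called lower, and 29.6% higher at either time. Scaled to spike-ins, 4 were higher and 2 lower at 3 h, where 83.8% of all genes were called higher and 2.69% lower, and 9 were lower and 0 higher at 6 h (68.4% and 3.28% of all genes). Klf6 fell from 41.1 and 40.7 CPM to 12.7 and 13.9 after 3 h and 10.6 and 8.40 after 6 h, changes of -1.62 ± 0.13 and -2.18 ± 0.15. Atf3 fell from 7.71 and 5.25 CPM to 1.67 and 2.06 and then to 1.22 and 1.61, by 1.78 ± 0.32 and 2.103 ± 0.370. Both genes began higher in cKO than in control, and their cKO libraries stayed above the control libraries at both later times in TMM-scaled CPM. Per 10000 spike-in reads, the libraries of Klf6 overlapped at 6 h, with 49.8 and 51.1 reads in control and 56.9 and 43.7 in cKO. Btg2 fell from 72.5 and 69.4 CPM to 50.1 and 53.7 and then to 28.1 and 35.0, by 0.45 ± 0.090 and 1.12 ± 0.100. With spike-in scaling the 3 h change of Btg2 turned to a called rise (1.39 ± 0.094), and Klf6 (0.21) and Atf3 (0.055) were no longer lower at 3 h; at 6 h all 3 genes were called lower.

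Ier2 in cKO fell from 36.6 and 39.3 CPM to 5.64 and 7.07 at 3 h and was at 8.56 and 10.3 at 6 h, changes of -2.56 ± 0.15 and -1.96 ± 0.15. Junb changed by -1.65 ± 0.24 and -1.11 ± 0.25, and Fos by -1.001 ± 0.343 and -1.25 ± 0.39, the last from 6 and 28 reads. With spike-in scaling the 3 h values turned to 0.18 for Junb, not called, and 0.83 for Fos, called higher. The 3 h call for Fos was lost without replicate 2 of cKO at 0 h (-0.97) or at 3 h (-0.93). Jun in cKO was at 25.9 and 21.4 CPM at 0 h, 16.6 and 15.2 after 3 h and 24.5 and 25.7 after 6 h. On the TMM scale Jun fell at 3 h (-0.58 ± 0.13, edgeR adjusted p = 0.000334), which spike-in scaling turned to a called rise (1.25 ± 0.14). At 6 h Jun did not pass the test (0.09 ± 0.14, adjusted p = 0.592), and spike-in scaling called it lower (-0.88 ± 0.14). Egr1 did not pass at either time.

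**Figure D3:**
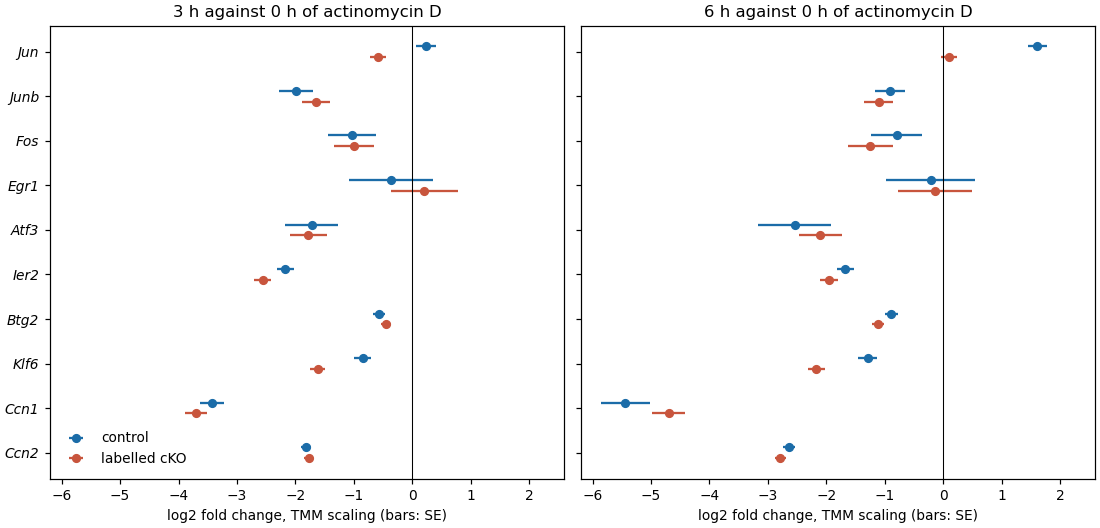
Log2 fold change of each member (x axis, TMM scaling, SE as bars, n = 2 and 2) at 3 h (left) and 6 h (right) against 0 h of actinomycin D, in control (blue) and in libraries labelled cKO (red). For most members the colours lie close together; Jun at 6 h is at 1.61 in control and 0.09 in cKO, and Klf6 is further left in cKO at both times.

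The change under the drug was then compared between cKO and control, as the difference of the log2 changes. At 6 h it was called for 2 of 10 members, both lower in cKO; 9.35% of all genes were called lower and 9.77% higher. With spike-in scaling the same 2 genes were called lower, as were 10.3% of all genes, with 7.52% higher. Jun differed by -1.52 ± 0.21 (edgeR adjusted p = 1.35e-06), and by -1.57 ± 0.21 with spike-in scaling. Klf6 differed by -0.88 ± 0.22 (adjusted p = 0.0035), and by -0.93 with spike-in scaling; without cKO replicate 2 at 6 h it was -0.65 and no longer called (adjusted p from 0.00204 to 0.107 over all alternatives). The 0 h libraries that enter these differences are those in which both genes were higher in cKO. At 6 h the levels of Jun lay closer in TMM-scaled CPM, 20.7 and 22.6 in control and 24.5 and 25.7 in cKO. Those of Klf6 did too, 7.003 and 7.289 in control and 10.6 and 8.40 in cKO. Per 10000 spike-in reads, Jun at 6 h had 147.0 and 158.3 reads in control and 131.3 and 133.5 in cKO. On that scale both cKO libraries lay below both control libraries.

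At 3 h the same 2 genes were called lower in cKO, Jun with -0.81 ± 0.22 (edgeR adjusted p = 0.0068) and Klf6 with -0.77 ± 0.19 (adjusted p = 0.0030); 8.39% of all genes were called lower and 11.0% higher. Without control replicate 2 at 3 h, Jun was at -0.62 and not called (adjusted p from 5.41e-08 to 0.0963 over all alternatives). With spike-in scaling all 10 members were called higher in cKO at 3 h, as were 89.4% of all genes, where the 2 cKO libraries at 3 h stand apart in their spike-in share. Of the 43 further immediate early genes, 9 were higher and 4 lower in the 6 h difference, where 9.77% of all genes were called higher and 9.35% lower. Among them were Socs3, an inhibitor of cytokine signalling (1.28 ± 0.14), Tiparp (1.14 ± 0.18), Mcl1, a survival factor (0.86 ± 0.10), and Phlda1 (-2.84 ± 0.65). With spike-in scaling 8 were higher and 5 lower, against 7.52% and 10.3% of all genes.

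The other immediate early genes also fell in control. Of 43 tested, 29 were lower and 2 higher at 3 h, and 25 were lower and 3 higher at 6 h, with medians of -1.07 and -1.05 against 0.07 and 0.03 over all genes. At 6 h Tiparp changed by -2.77 ± 0.15, Sgk1 by -2.50 ± 0.074, Socs3 by -2.29 ± 0.11, Plk2 by -2.27 ± 0.092, Klf4, a pluripotency factor, by -1.88 ± 0.097 and Klf10 by -1.81 ± 0.095. Of 18 SRF, CREB and related regulators 14 were lower and 0 higher at 6 h, and of 25 factors of AU-rich RNA decay 20 were lower and 3 higher. Of the 20 kinase cascade genes 8 were higher and 7 lower at 6 h, shares near those of all genes. With spike-in scaling the 6 h counts became 0 higher and 18 lower for the regulators, 0 and 24 for the decay factors and 1 and 15 for the kinases, where 63.0% of all genes were called lower. On the same comparison Ccn1 lay below all 6 named genes, and Jun above them.

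Likeness of pattern was measured over the 6 Ythdc1 groups as the root mean square difference of centred log2 CPM, among 10622 protein-coding genes with a mean of at least 50 reads. It is a description with no test. The nearest genes to Ier2 were Amotl2, an angiomotin of the Hippo pathway (0.125), and Trib1, a pseudokinase (0.153), against a median of 1.11 over all genes. Atf3 lay nearest to Tiparp (0.241) and Slc38a2 (0.294), and Ccn2 nearest to Plk2 (0.222) and Zfp472 (0.250). Ccn1 lay nearest to the histone genes Hist1h2bg (0.270) and Hist1h2an (0.372), and Jun nearest to Crmp1 (0.269) and Ltbp4 (0.274). Junb lay nearest to Lcmt2 and Fam43a, Fos to Pde4d and Pcdhga2, Egr1 to Invs and Bola1, Btg2 to Phf20l1 and Rev1, and Klf6 to Susd6 and Yae1d1. No member was the nearest gene of another member; the closest pair was Fos and Btg2 (0.225).

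In the Mettl3 experiment, 2 lines labelled as knockouts share 1 control. In KO1, 9 of 10 members were lower than in control and 0 higher, with 22.2% of the 21802 genes tested called lower and 23.9% higher; the members' median was -0.63 and that of all genes -0.01. In KO2, 6 were lower and 4 higher, with 26.4% and 24.4% of all genes called so. With spike-in scaling, which moved the median of all genes to 0.17 in KO1 and 0.53 in KO2, 7 were lower and 1 higher in KO1 (13.7% and 34.8% of all genes) and 2 lower and 5 higher in KO2 (6.69% and 56.7%).

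Klf6 was at 57.6 and 58.9 CPM in control, at 25.3 and 24.8 in KO1 and at 41.7 and 36.1 in KO2. The 3 groups did not overlap, and Klf6 fell by 1.22 ± 0.070 in KO1 (edgeR adjusted p = 2.27e-26) and by 0.58 ± 0.068 in KO2 (adjusted p = 7.56e-12), where spike-in scaling left -0.02. Egr1 was at 1.29 and 0.979 CPM in control, 0.586 and 0.174 in KO1 and 0.246 and 0.224 in KO2, from 27 and 23, 18 and 4, and 6 and 5 reads. Egr1 fell in KO2 by 2.24 ± 0.64 (edgeR adjusted p = 0.00106) and in KO1 by 1.49 ± 0.55 (adjusted p = 0.017). The KO1 value rested on single libraries, with -2.67 without KO1 replicate 1, -0.94 without KO1 replicate 2 and -1.29 without control replicate 1, the last 2 not called (adjusted p from 0.00512 to 0.204 over all alternatives).

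Among the AP-1 genes, Jun was at 25.2 and 28.4 CPM in control, 14.5 and 15.5 in KO1 and 20.2 and 22.4 in KO2. Both lines lay below control, with log2 changes of -0.84 ± 0.094 in KO1 (edgeR adjusted p = 2.11e-12) and -0.33 ± 0.092 in KO2 (adjusted p = 0.00158). The KO2 call for Jun was lost without control replicate 2 (-0.24) or KO2 replicate 1 (-0.26). Spike-in scaling turned the KO2 value to a called rise (0.23 ± 0.094). Fos was at 4.87 and 4.68 CPM in control, 2.77 and 1.87 in KO1 and 3.29 and 2.82 in KO2, changes of -1.02 ± 0.23 and -0.64 ± 0.23. The KO2 call for Fos was lost without control replicate 1 (-0.61) or KO2 replicate 2 (-0.54), and scaled to spike-ins the value was -0.08.

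Junb was at 16.9 and 15.5 CPM in control, 13.4 and 13.2 in KO1 and 9.53 and 7.35 in KO2, so that KO2 lay lowest. It fell by 0.94 ± 0.12 in KO2 (edgeR adjusted p = 4.36e-10); in KO1 the change of -0.28 ± 0.11 was lost without KO1 replicate 1 (-0.29), KO1 replicate 2 (-0.27) or control replicate 1 (-0.22), without the filter, with DESeq2's Wald test, in 1 fit of all 18 libraries, and with spike-in scaling (-0.098; adjusted p from 0.0131 to 0.515 over all alternatives). With spike-in scaling the KO2 value was -0.37. Prdx2, which overlaps Junb, had 1914 and 2066 reads in control, 2967 and 2325 in KO1 and 1465 and 1418 in KO2. These reads are not scaled to depth. The libraries held 20444256 and 22879403 gene reads in control, 30989044 and 23302028 in KO1 and 24895122 and 22714684 in KO2. Ier2 was at 79.5 and 71.4 CPM in control, 55.8 and 57.2 in KO1 and 47.8 and 45.5 in KO2. These were falls of 0.42 ± 0.058 and 0.69 ± 0.059. Scaled to spike-ins, the value was -0.23 in KO1, still called, and -0.13 in KO2, not called.

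Ccn1, Ccn2 and Atf3 went opposite ways in the 2 lines. Ccn1 was at 45.7 and 45.8 CPM in control, 36.5 and 36.6 in KO1 and 135.4 and 128.2 in KO2. Ccn2 was at 67.0 and 66.5 in control, 55.5 and 51.9 in KO1 and 117.7 and 118.9 in KO2. For both genes KO1 lay below and KO2 above control without overlap: Ccn1 changed by -0.33 ± 0.059 in KO1 and 1.53 ± 0.054 in KO2 (edgeR adjusted p = 2.63e-06 and 1.16e-39), and Ccn2 by -0.31 ± 0.054 and 0.83 ± 0.051 (adjusted p = 8.58e-07 and 1.04e-24). Atf3 moved from 4.58 and 4.68 CPM to 2.44 and 2.74 in KO1 and to 6.90 and 7.44 in KO2, changes of -0.85 ± 0.21 and 0.63 ± 0.18. With spike-in scaling Ccn2 in KO1 was -0.13 and not called.

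The direct comparison of KO2 with KO1 called 5 members higher and 2 lower, with 21.6% and 24.5% of all genes called so; with spike-in scaling 7 were higher and 0 lower (48.1% and 7.63%). Ccn1 was higher in KO2 by 1.85 ± 0.055, Atf3 by 1.47 ± 0.20, Ccn2 by 1.14 ± 0.051, Klf6 by 0.64 ± 0.072 and Jun by 0.51 ± 0.096. Junb was lower by a log2 value of -0.65 ± 0.12 and Ier2 by one of -0.27 ± 0.060, which spike-in scaling turned to 0.11; Fos (0.38 ± 0.24), Egr1 (-0.75 ± 0.69) and Btg2 (0.13 ± 0.068) were not called. Btg2 itself was at 33.6 and 34.0 CPM in control, 38.5 and 36.7 in KO1 and 40.1 and 42.4 in KO2, called higher in KO2 (0.29 ± 0.070) and not in KO1 (0.16 ± 0.070, edgeR adjusted p = 0.0597).

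**Figure D4:**
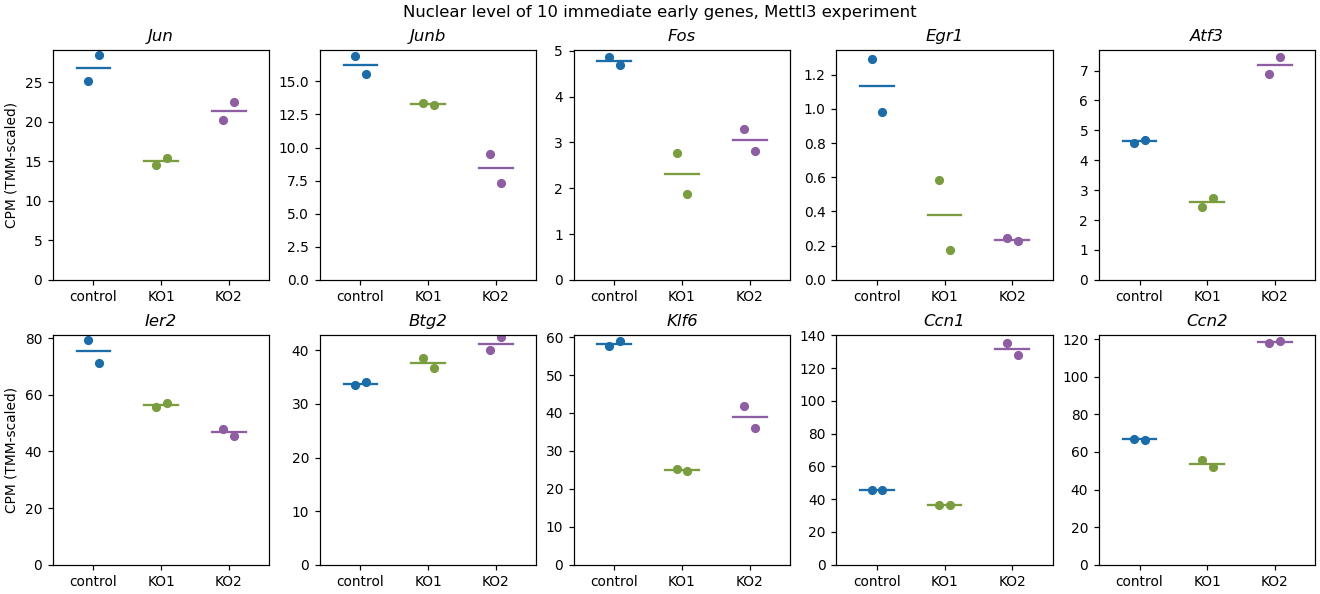
Level of each member (y axis, TMM-scaled CPM, from 0) in the Mettl3 control and in the lines labelled KO1 and KO2; each point is 1 library and bars are the means of 2. Ccn1 and Ccn2 stand highest in KO2, at 135.4 and 128.2 and at 117.7 and 118.9 CPM, while Klf6 stands lowest in KO1, at 25.3 and 24.8.

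Fibroblast markers were higher in KO2, where the CCN genes rose, and did not fall in KO1, where the CCN genes were lower. Their 13-gene sum was 310.4 and 282.4 CPM in control, 313.0 and 319.8 in KO1 and 804.9 and 805.7 in KO2, led by Col1a1, with none at 0; of 10 tested, 8 rose in KO2 and 0 fell, and 4 rose and 1 fell in KO1. Of 12 pluripotency markers, 10 rose and 1 fell in KO1 (sums of 3909 and 3870 CPM in control, 5201 and 5203 in KO1), and 1 rose and 9 fell in KO2 (3601 and 3568). Of 7 endoderm markers tested, 0 rose and 5 fell in KO1, and 1 rose and 3 fell in KO2. Summed over 8 genes, they stood at 1748 and 1753 CPM in control, 1287 and 1261 in KO1 and 1479 and 1496 in KO2. The part of any of these lists in the members' changes was not tested. Of the 20 YAP, TAZ and TEAD pathway genes, 10 rose and 5 fell in KO2, among them Ankrd1, a YAP target encoding a muscle ankyrin repeat protein (3.37 ± 0.29), Amotl2 (0.58 ± 0.033), the Hippo kinase gene Stk3 (0.91 ± 0.065) and its adaptor Mob1a (-0.95 ± 0.061). In KO1 6 rose and 6 fell, and Ankrd1 rose there as well (2.12 ± 0.30), while Amotl2 fell by 0.33 ± 0.033, as Ccn1 and Ccn2 did. With spike-in scaling 18 of these 20 genes were higher in KO2 and 1 lower, where 56.7% of all genes were called higher and 6.69% lower.

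The wider immediate early response was divided in both lines. Of all genes, 23.9% were called higher and 22.2% lower in KO1, and 24.4% and 26.4% in KO2. With spike-in scaling these shares were 34.8% and 13.7% in KO1, and 56.7% and 6.69% in KO2. Of 46 other immediate early genes tested, 13 rose and 17 fell in KO1, and 9 rose and 15 fell in KO2; with spike-in scaling the counts became 14 and 14, and 30 and 5. Id1, an inhibitor of bHLH factors, fell by 3.08 ± 0.12 in KO1 and 3.93 ± 0.15 in KO2, and Hbegf, an EGF receptor ligand, by 1.40 ± 0.066 and 1.64 ± 0.069. In KO1 Myc rose by 2.22 ± 0.11, Sgk1 by 1.00 ± 0.040 and Zfp36l1, which encodes a protein that binds AU-rich elements, by 1.13 ± 0.087. In KO2 Dusp1, a phosphatase of MAP kinases, rose by 1.05 ± 0.072, and Bhlhe40 fell by 1.18 ± 0.10. Of the 20 kinase cascade genes 6 rose and 6 fell in KO1, and 5 and 6 in KO2; with spike-in scaling these became 12 and 3, and 17 and 0. Of 25 factors of AU-rich RNA decay 13 rose and 5 fell in KO1, and 9 and 7 in KO2; with spike-in scaling these became 19 and 2, and 22 and 2. The decapping enzyme gene Dcp2 rose in both (1.00 ± 0.035 and 0.63 ± 0.036), and Zc3h12a, an RNase gene, fell in KO2 by 2.27 ± 0.11.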

How the data were processed

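Nuclear RNA, depleted of ribosomal RNA and mixed with 0.1 µl of ERCC spike-in, was sequenced in 18 libraries. The authors deposited raw counts per gene; the submitters' processing notes name CASAVA, Trimmomatic 0.38, HISAT2 2.1.0, HTSeq and mm10. Whether counting used strand, and which gene release, is not stated in the labels; symbols come from GENCODE M21.

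The Ythdc1 libraries (12) and Mettl3 libraries (6) were fitted apart with edgeR 4.0.16 (R 4.3.3): TMM, default filter (minimum count 10), quasi-likelihood F test, Benjamini-Hochberg over all genes tested, called at adjusted p under 0.05. The 10 members passed the filter in both. The SE is that of the contrast. Alternatives were spike-in scaling, DESeq2 1.42.0 (size factors; Wald test), no filter, 50 reads in 2 libraries, a replicate block, 1 fit of all 18 libraries, each library left out and, added after seeing the data, both cKO 3 h libraries left out. The fit was tested on simulated data. Members, lists and naming rules (all members; up to 4 called genes per list by p, 6 for other immediate early genes; the 2 genes nearest in pattern) were chosen with earlier results of these data known.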

Additional observations from a re-analysis of the deposited data

Results flagged for a closer look

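The change under actinomycin D differed between libraries labelled cKO and control for 2 of 10 members, by the test of the difference of log2 changes. Of all genes, 8.39% were called lower and 11.0% higher at 3 h, and 9.35% and 9.77% at 6 h. At 3 h the difference was -0.81 for Jun and -0.77 for Klf6, and at 6 h it was -1.52 for Jun and -0.88 for Klf6. With spike-in scaling the 3 h values turned to 1.55 and 1.59, and the 6 h values were -1.57 and -0.93. Leaving out 1 library could end the call of Jun at 3 h and that of Klf6 at 6 h. Both genes were higher in cKO before the drug, and those 0 h libraries enter each difference.

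The lines labelled KO1 and KO2 differed from each other in 7 of 10 members, where 21.6% of all genes were called higher in KO2 and 24.5% lower. KO2 was higher in Ccn1 (1.85), Atf3 (1.47), Ccn2 (1.14), Klf6 (0.64) and Jun (0.51), and lower in Junb (-0.65) and Ier2 (-0.27). With spike-in scaling Junb was at -0.27 and Ier2 at 0.11, and neither was called. The summed fibroblast markers, 313.0 and 319.8 CPM in KO1 and 804.9 and 805.7 in KO2, differed alongside; their part was not tested.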

How the results depend on the processing

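Over 10 members and 10 comparisons, all 100 calls or non-calls were the same with the replicate number as a block (at 0 h, 6 members were higher in cKO with and without it). The numbers did not pair the libraries: differences between replicates correlated by 0.0011 to 0.0426 between Ythdc1 groups and by -0.0337 to -0.0050 between Mettl3 groups. Leaving out 1 library ended 21 calls among 480 values and reversed 0; the number of members called in the difference of the 3 h change, and of the 6 h change, ran from 1 to 2. DESeq2's Wald test ended 5 calls of 93, no filter ended 3 and added 1, and leaving out both cKO 3 h libraries changed 0 of 50.

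Spike-in scaling changed most: 68 of 100 were the same, 7 calls were lost, 10 were gained and 15 changed sign where either value was called; sign changes between values not called are not counted. It called 10 members in the 3 h difference instead of 2. In cKO at 3 h against 0 h the values became 1.25 for Jun, 0.18 for Junb, 0.83 for Fos, 0.055 for Atf3, 1.39 for Btg2, 0.21 for Klf6 and 0.058 for Ccn2, and at 6 h -0.88 for Jun. The 3 h difference became 1.55 for Jun, 1.97 for Ier2, 2.31 for Atf3, 1.59 for Klf6 and 2.08 for Ccn1. KO2 against control became 0.23 for Jun, and KO2 against KO1 0.11 for Ier2. The cause was not tested. Depth limits Egr1 and, late in the drug series, Fos, Atf3 and Ccn1, which rested on 10 reads or fewer in some libraries.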
